A study of Mus musculus with 4 samples.

Results

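The ubiquitin-specific protease genes examined here are the 49 autosomal protein-coding mouse genes whose symbol is Usp followed by a number, with an optional letter or an l form. They are 49 of the 20807 autosomal protein-coding genes of GENCODE M21. The rule uses only symbol and chromosome, and their sequences are the listed RNAs that match a transcript of 1 of them exactly, in sense or antisense, and of no other gene. This gave 11057 sense and 192 antisense sequences, and the sense set was 0.225% of the 4906138 distinct sequences in the list.

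The list comes from small RNAs that were bound to MILI (Piwil2), a PIWI protein of fetal and postnatal male germ cells, and were immunoprecipitated from testes of 14 dpp C57BL/6 mice. The 4 libraries were 2 from Tdrd9+/- mice, the controls, and 2 from Tdrd9-/- mice, and RNAs of roughly 28 to 30 nt were cut from a gel. All 4 libraries are pooled in 1 table of sequences and mm9 positions with no read count and no library name. The genotypes were therefore not compared, no replicate error can be given, the depth per library is unknown, and an abundant RNA counts the same as a rare one. Intervals in the text are exact Clopper-Pearson 95% intervals and cover counting error over distinct sequences only. Because whole testis was used, fewer cells of a type and less RNA per cell cannot be told apart. Of the marker genes, 8 of 8 of male germ cells had 100 or more sense sequences, against 0 of 5 of Sertoli cells and 1 of 5 of Leydig cells (Star, 247). Over all autosomal protein-coding genes the share was 25.8%. The Leydig markers Cyp17a1, Hsd3b1 and Insl3 had 0.

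Ubiquitin-specific proteases are the largest family of deubiquitinating enzymes. They are cysteine proteases that cut ubiquitin from proteins or take ubiquitin chains apart, and so counter the ubiquitin ligases. In male germ cells, ubiquitin on histone H2A and H2B and removal of proteins by the proteasome accompany meiosis and the remodelling of chromatin in spermatids. PIWI-interacting RNAs (piRNAs) are cut from long single-stranded transcripts. In the testis before the pachytene stage these include many messenger RNAs, and the first base of a piRNA is most often U.

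The RNAs themselves show what was bound. For each of the 5 members with most sense sequences, the 5′ end that was shared by most sequences is printed as its longest sequence, with T for U as in the list and the first base in capitals. The Usp31 sequence lies at chr7:128786925-128786954 (mm9, minus strand), in the 3′ UTR in exon 16. The Usp12 sequence lies at chr5:147549276-147549305 (minus strand), in the coding part of exon 9. The Usp49 sequence lies at chr17:47820002-47820030 (plus strand), the Usp48 sequence at chr4:137214192-137214221 (plus strand) and the Usp37 sequence at chr1:74484176-74484204 (minus strand), all in the 3′ UTR. For Usp37 this is the 3′ UTR of its longest transcript (7111 nt), since that end is not on the transcript with the longest coding sequence.
Usp31: Tggacaagaaaatgaaaaggtgtcagtccc
Usp12: Tccaagaactcggagtctggctacatcctt
Usp49: Taaggagagctctgctgcagaagggcagg
Usp48: Tagagaaaattctgcatactgacccacatc
Usp37: Tggagaacttcgagcagttgaaatgatga
All of them begin with U. Each of these ends was held by 7 sequences, or 8 in Usp37, that share the first base and stop at different last bases, from 24 to 30 nt long in Usp31 and Usp12, from 22 to 29 nt in Usp49 and Usp37, and from 23 to 30 nt in Usp48. Usp12 had 3 such ends and Usp49 had 2, of which the one nearest the start of the transcript is shown. Over all members, 7190 distinct 5′ ends and 8739 distinct 3′ ends were listed, so 5′ ends were shared more than 3′ ends.

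Most Usp messenger RNAs gave MILI-bound sequences, and a few gave many. Of the 49 genes, 45 had at least 1 sense sequence of their own, against 73.8% of all autosomal protein-coding genes. Counts of 10 or more were found for 41 members (57.5% of all genes), of 100 or more for 29 (25.8% of all genes) and of 1000 or more for 1 (1.59% of all genes). The median member had 129 sequences and the median gene 21. Longer transcripts can hold more sequences, and the median longest transcript was 4707 nt for the members and 2928 nt for all genes, so levels below are given as a density, the number of distinct sense 5′ ends on any transcript of the gene, divided by the length of its longest transcript in kb. The median density was 18.9 ends per kb over the members and 6.26 over all genes. With only the ends that lie on the longest transcript itself, an alternative added after seeing the data, these medians were 15.8 and 4.81. Of the 49 densities, 4 fell by over 1.5 times in that count: Usp10 went from 29.8 to 18.5 ends per kb, Usp16 from 17.6 to 5.86, Usp21 from 8.13 to 2.59 and Usp29 from 11.1 to 3.58. Of the members, 39 lay above the median of all genes, 21 above the upper quartile of 23.02 and 8 above 90% of all genes. Among the members, density and transcript length had a Spearman correlation of 0.402 over 49 genes, which is a description of genes that share the same pooled libraries. These include the Usp17l genes, with transcripts of 1558 to 2656 nt and at most 0.503 ends per kb, and the value without them was not computed.

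**Figure D1:**
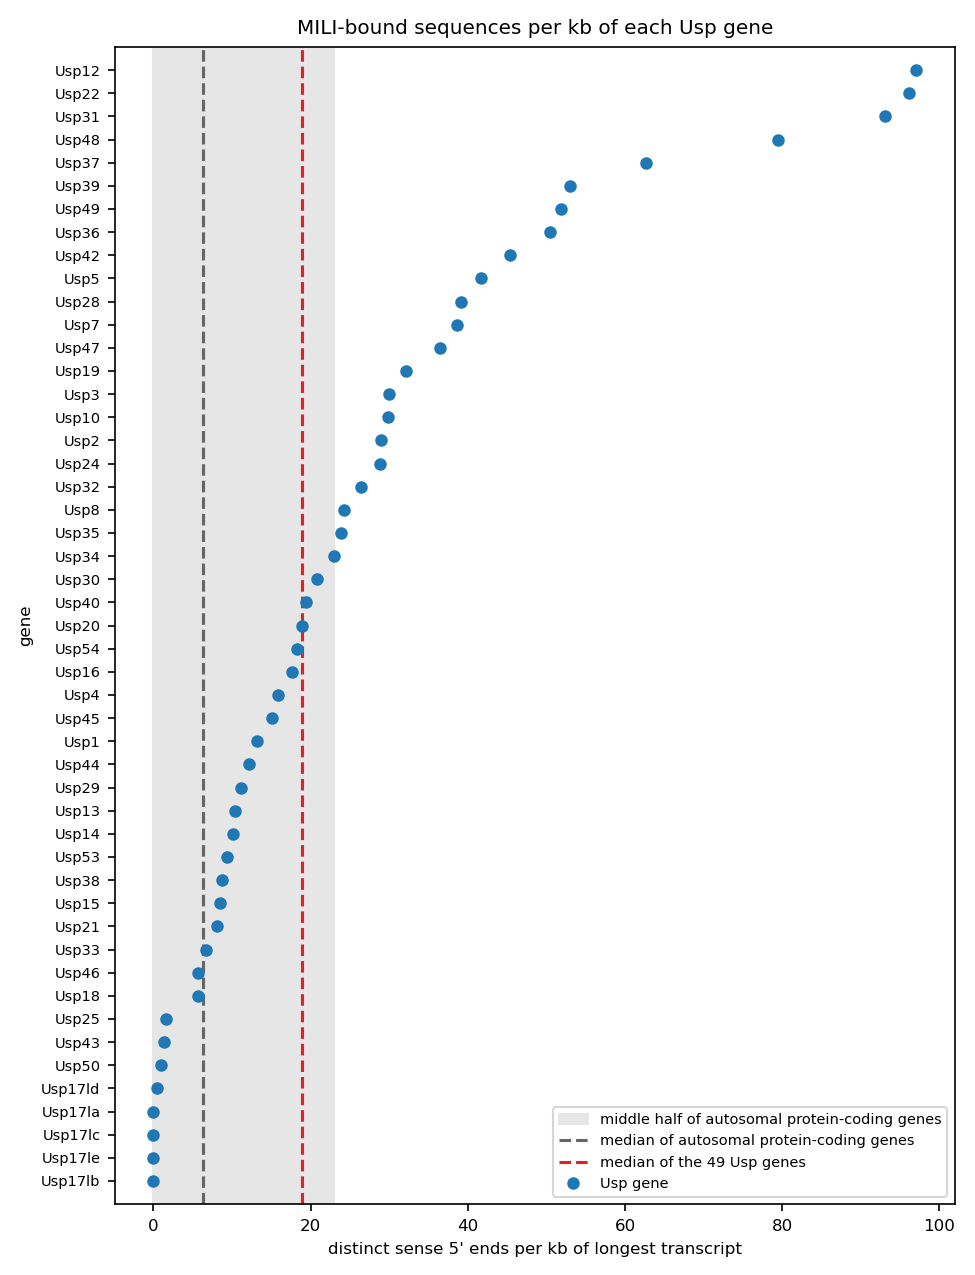
Density (x axis), the distinct sense 5′ ends on any transcript of the gene divided by the kb of its longest transcript, for each of the 49 Usp genes (y axis), with the median of all autosomal protein-coding genes (grey dashes, 6.26), their middle quartiles (grey band) and the median of the Usp genes (red dashes, 18.9). Usp12, Usp22 and Usp31 stand between 93.1 and 97.1, and the Usp17l genes stand at or near 0.

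Enzymes that act on histones included 3 of the 6 fullest members. The group of 7 fixed for H2A and H2B held 2973 sequences, with 7 of 7 members at 10 or more (57.5% of all genes) and a median of 45.4 ends per kb (8.13 to 96.1). Usp22, the ubiquitin protease of the SAGA coactivator complex, had 743 sequences at 426 ends, or 96.1 ends per kb, and 71.2% of its transcript was covered by at least 1 sequence. Usp48, which removes ubiquitin from H2A, had 754 sequences (79.4 ends per kb), and Usp49, an H2B protease, had 795 (51.9 ends per kb). These genes lay above 98.1%, 96.9% and 92.02% of all autosomal genes in density. Usp42 had 339 sequences (45.4 ends per kb), Usp3, which acts on H2A and H2B, 243 (29.96), Usp16, the H2A protease of mitotic cells, 72 (17.6) and Usp21 27 (8.13). The group therefore spans nearly the whole range of the family and is not uniformly dense.

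Usp49 is counted low by the rule that a sequence must match no other gene. A further 938 sense sequences also match Gm20517, an annotated protein-coding gene that shares exons with Usp49, and 0 of the positions in the Usp49 coding sequence could give a sequence of Usp49 alone. With every matched gene counted, Usp49 had 1739 sense sequences in place of 795. Usp34 went from 364 to 572, Usp38 from 49 to 107 and Usp33 from 30 to 51 in the same way, and in these 3 genes the other match was on the opposite strand: to Ahsa2 (208 sequences), Gm9725 (58) and Gm43857 (20). Of the 44 members other than the Usp17l genes, 36 had at least 90% of their 27-nt windows in no other gene, so the rule touches few of them.

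Usp31 was the fullest member, and the only one with over 1000 sequences, when sequences shared with another gene are left out. With every matched gene counted it had 1714 and Usp49 had 1739. It had 1713 sequences at 949 ends (93.1 ends per kb), ranked 104 among all autosomal protein-coding genes by sequences, and had 0 antisense sequences. Its sequences lie on chromosome 7 between mm9 positions 128785583 and 128850385, on the minus strand, and covered 65.2% of a 10198-nt transcript.  The 5 fullest members, Usp31, Usp12, Usp49, Usp48 and Usp37, together held 43.6% of the family's sense sequences.

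Usp12 was the densest member, and its close relative was among the sparsest. Usp12 and Usp46 are paralogous enzymes that both work with the WD-repeat protein UAF1 (Wdr48). Usp12 had 810 sequences at 97.1 ends per kb and Usp46 had 31 at 5.70, a ratio of 17.03. The other paralogs chosen for comparison differed less, with 1 exception. Usp28, which acts in the DNA damage response and on MYC, had 217 sequences (39.2 ends per kb), whereas its paralog Usp25 had 9 (1.68), a ratio of Usp25 to Usp28 of 0.0427. Usp5, which takes apart free ubiquitin chains, had 181 (41.7) and its paralog Usp13 95 (10.4). Usp20 had 109 (18.9) and Usp33 30 (6.69), a ratio of 2.82 that rests partly on the sequences Usp33 shares with Gm43857. Densities of the remaining pairs lay within 2 times of each other: Usp4 and Usp15 at 15.8 and 8.503, Usp54 and Usp53 at 18.2 and 9.38, and Usp16 and Usp45 at 17.6 and 15.2. By sequences, the orders of Usp4 and Usp15 (66 and 129) and of Usp16 and Usp45 (72 and 123) were the other way. The order of Usp16 and Usp45 also turned (5.86 and 15.2) when only ends on the longest transcript were counted. These ratios compare genes within 1 pooled list and carry no replicate error.

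Members of DNA repair and the p53 pathway were all present, at densities on both sides of the family median of 18.9 ends per kb. All 6 had 10 or more sequences (57.5% of all genes), with a median of 33.1 ends per kb (13.1 to 39.2). Usp47, which acts on DNA polymerase beta, had 277 sequences (36.5 ends per kb), Usp7, the protease of MDM2 and p53, 269 (38.6), and Usp10, a partner of G3BP and a p53 protease, 164 (29.8). Usp45, which acts on ERCC1, had 123 (15.2). Usp1, which takes ubiquitin from FANCD2 and PCNA, had 67 (13.1). Of the Usp1 transcript, 63.7% of 27-nt windows occur in no other gene, and a processed pseudogene, Gm5841, shares sequences with it.

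Of the cell cycle members, Usp37 stood out in number. Usp37, which stabilises cyclin A, had 748 sequences (62.7 ends per kb), Usp2, linked to cyclin D1, 153 (28.96), and Usp44, which acts at the spindle checkpoint, 50 (12.2). The members of the nucleolus and spliceosome were both dense. Usp36, a nucleolar enzyme, had 435 sequences (50.4 ends per kb), and Usp39, a spliceosome component that lacks protease activity, had 177 on a 2244-nt transcript (53.03). The proteasome-bound Usp14 was sparser, at 63 sequences (10.2 ends per kb), and 54.4% of its 27-nt windows occur in no other gene, since it overlaps Thoc1.

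Enzymes of endosomes and organelles and of signalling varied widely. Among the first, Usp32 had 244 sequences (26.4 ends per kb), the endoplasmic reticulum enzyme Usp19 209 (32.1), the mitochondrial Usp30 134 (20.9) and the endosomal Usp8 131 (24.3). All 6 of this group had 10 or more (57.5% of all genes). Among the 6 signalling members, the very large Usp34, which acts on axin in the Wnt pathway, had 364 (22.95 ends per kb), and Usp15, which acts in TGF-beta signalling, had 129 (8.503). Usp18, which removes the ubiquitin-like ISG15 and is induced by interferon, had 10, the lowest density of the members that reached 10 (5.65). Its neighbours in that order were Usp46 and Usp33. Usp24, another very large enzyme, had 420 sequences (28.8 ends per kb), and Usp54, Usp35, Usp40 and Usp53 had 152, 143, 120 and 71.

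The imprinted Usp29, which lies beside Peg3, had 111 sequences at 84 ends (11.1 ends per kb) on chromosome 7 between mm9 positions 6683616 and 6918706. On its transcript with the longest coding sequence, which is also its longest (7540 nt), lay only 27 of the 84 ends, or 3.58 ends per kb. Of these, 13 lay in the 5′ UTR, 14 in the 3′ UTR and 0 in the coding sequence. Only 110 positions of that 2610-nt coding sequence could give a sequence of Usp29 alone. A 5′ U was carried by 86.5% of its sequences (78.7–92.2%), the highest share among members with 50 or more.

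Members with few or no sequences were Usp25 (9), Usp43 (7), Usp50 (2) and the Usp17l genes. The Usp17l genes are a rodent cluster of closely related copies on chromosome 7 whose founders were found as cytokine-inducible enzymes of blood cells. Usp17ld had 1 sense sequence, and Usp17la, Usp17lb, Usp17lc and Usp17le had 0. Between 29.8% and 62.3% of the 27-nt windows in these 5 transcripts occur in no other gene, so part of each transcript could have given a sequence of its own. With every matched gene counted the values were the same. The list gives each sequence at 1 position, and how it treats RNAs that match several positions is not stated, so these values are uncertain for genes with close copies.

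Within the messenger RNAs, the 3′ UTR held most ends for its length. On the transcript with the longest coding sequence of each gene, 3365 of 6668 ends lay in the 3′ UTR (50.5%, 49.3–51.7%) on 36.3% of the nucleotides. The coding sequence held 3179 ends (47.7%) on 58.6% of the nucleotides and the 5′ UTR 124 ends (1.86%) on 5.11%. These counts came to 38.8 ends per kb of 3′ UTR, 22.7 of coding sequence and 10.1 of 5′ UTR, against 22.7, 17.4 and 9.73 over all genes. Dividing the pooled 3′ UTR density by the coding one gave 1.71 for the members and 1.30 for all genes, and without Usp31, the member with most ends, it was 1.49. Usp49 raises the pooled ratio through the matching rule. It added 419 3′ UTR ends and 0 coding ends, since 0 positions of its 2058-nt coding sequence could give a sequence of Usp49 alone. The ratio without both genes was not computed.

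The pooled ratio hides members that went opposite ways. Of the 31 members with 50 or more ends and regions of at least 100 nt, the 3′ UTR was the denser region in 18, against 42.9% of 6192 genes overall. The highest ratios with ends in both regions were those of Usp13 (15.1 against 2.33 ends per kb, ratio 6.48), Usp39 (117 against 34.8, ratio 3.35), Usp48 (129 against 41.5, ratio 3.12), Usp30 (ratio 2.62) and Usp22 (ratio 2.34). At the other end, Usp15 had 2.82 ends per kb on a 3′ UTR of 8499 nt and 25.1 on its coding sequence (ratio 0.112), Usp19 had a ratio of 0.251, and Usp3 had 20.7 against 53.1 (ratio 0.389). Usp16 and Usp34 had 0 ends in the 3′ UTR. In Usp16 94 positions of a 286-nt 3′ UTR could give a sequence of that gene alone, and in Usp34 0 positions could, so the Usp34 value says nothing of its RNA.

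With only the positions counted that could give a sequence of the gene alone and that cross no exon junction, an alternative chosen after seeing the data, the 3′ UTR was denser in 14 of 29 members. The pooled ratio was then 1.43, and the median ratio was 0.986 in place of 1.12. Usp12 went from 1.12 to 0.677, and Usp20 and Usp45 also moved to below 1 (0.986 and 0.953). Usp13, Usp39, Usp48, Usp30 and Usp22 stayed above 1 at 5.21, 2.88, 2.45, 2.37 and 1.895, and Usp15, Usp19 and Usp3 stayed below 1 at 0.0878, 0.233 and 0.311. The same count was not made for all genes.

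**Figure D2:**
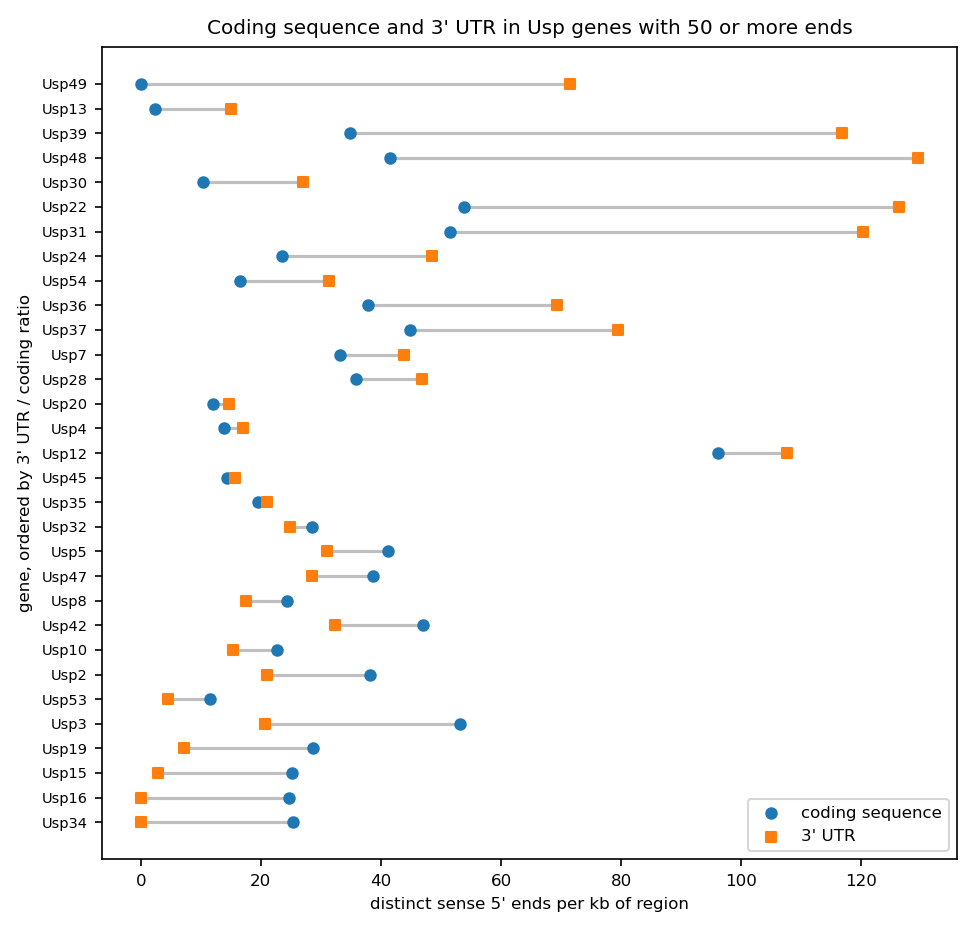
Distinct sense 5′ ends per kb (x axis) in the coding sequence (circles) and 3′ UTR (squares) of the 31 Usp genes with 50 or more ends, ordered by the ratio of the densities. The 3′ UTR is the denser region in 18 genes, and Usp49 at the top and Usp34 at the bottom have regions in which few or no positions could give a sequence of that gene alone.

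Ends were spread along the transcripts rather than set at a few sites. In 100-nt bins, Usp31 had a median of 7 ends per bin and at most 34, with 6 of 101 bins empty. Usp22 had a median of 8.5 and at most 32, with 2 of 44 empty, and Usp48 a median of 6 and at most 32, with 4 of 57 empty. Usp12 was less even, with a median of 7, at most 40 (transcript positions 1501 to 1600) and 9 of 43 bins empty, among them the last part of its annotated 3′ UTR: the last end lay 2206 nt after the coding sequence on a 3′ UTR of 2870 nt. Usp47 stopped 1209 nt into a 3′ UTR of 1542 nt, and 90% of its 3′ UTR ends lay in the first 1052 nt. In Usp31 ends ran to 6089 nt of a 6163-nt 3′ UTR. In Usp15 the few 3′ UTR ends lay far from the coding sequence, with a median distance of 5386 nt. Over all members, in 5 equal stretches from start to end, the 3′ UTR held 19.6%, 20.5%, 26.3%, 19.8% and 13.8% of its ends, and the coding sequence 17.9%, 16.9%, 18.7%, 20.98% and 25.6%. The last stretch held 14.9% and 23.4% over all genes, so both sets had their lowest 3′ UTR share and their highest coding share there.

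**Figure D3:**
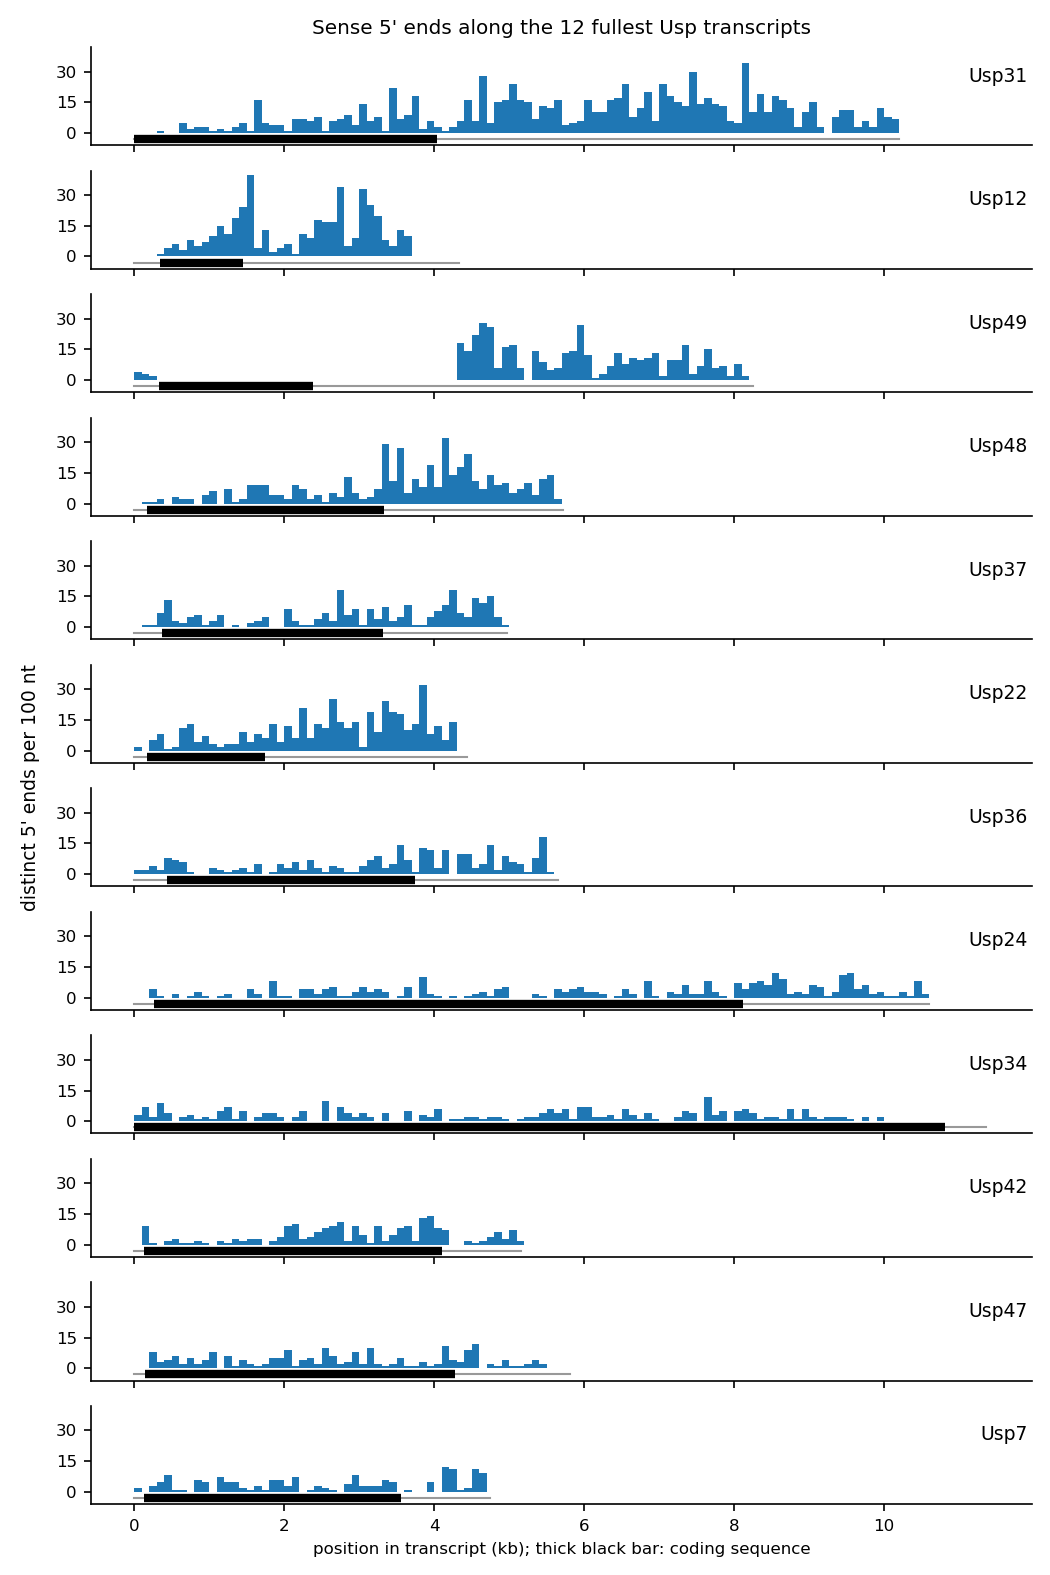
Distinct sense 5′ ends per 100 nt (y axis) along the transcript with the longest coding sequence (x axis, kb) for the 12 members with most sequences, with the coding sequence as a thick black bar. Ends run through coding sequence and 3′ UTR in most genes, and the gap in Usp49 holds its coding sequence, in which 0 positions could give a sequence of Usp49 alone.

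Exon junctions were nearly absent from the list. Of 10333 sense sequences placed on these transcripts, 74 spanned a junction, although 9.42% of 27-nt placements would. Of the 74, 67 reached over it by 3 nt or less and the longest by 5 nt. Every listed sequence is as long as its genome interval, so each was placed as 1 unbroken stretch. The share of placements that cross a junction was 20.4% in Usp40, 18.1% in Usp34 and 17.1% in Usp7, but 3.83% in Usp31 and 1.90% in Usp49, and the densities above were not adjusted for it.

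The first base set the sequences of the family apart from the transcripts they came from. A 5′ U was carried by 70.1% of sense sequences (69.2–70.9%), against 69.2% over all genes, and by 63.2% of distinct ends. The U content of the same transcripts, weighted by ends, was 26.3%. In each of the 36 members with 50 or more sequences the share with 5′ U was above the U content of its transcript. U stood at 62.5% of ends at the first base, 26.05% at the base before it and 18.9% at the second base, where G was most frequent (35.6%). U began 64.99% of 3′ UTR ends (63.4–66.6%) and 59.7% of coding ends (57.98–61.4%), on regions with a U content of 29.5% and 23.2%. In the 5′ UTR, which had the lowest U content (19.2%), the share was 65.3% (56.3–73.6%) over 124 ends. Ends held by more sequences had U more often, at 55.7% (54.3–57.1%) of ends with 1 sequence, 76.3% (74.4–78.2%) with 2 or 3 and 91.3% (87.9–94.0%) with 4 or more.

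The share with 5′ U ran from 53.4% to 86.5% of sequences among these members (mean 69.9%, SD 7.21 over 36 genes). Sequences that share a 5′ end share its first base, so the intervals over sequences are too narrow, and the members were also set against all genes over distinct ends, an alternative added after seeing the data. All genes had U at 62.9% of ends. The intervals over ends held that value in 25 members and lay above it in 6 and below it in 5, with no adjustment for the 36 intervals looked at. Usp29 (82.1%, 72.3–89.6%), Usp44 (83.3%), Usp20 (interval 65.1–83.3%), Usp13 (74.7%), Usp24 (71.5%) and Usp31 (66.5%, 63.4–69.5%) were above. Usp8 (48.5%), Usp12 (49.8%, 44.9–54.6%), Usp5 (51.5%), Usp42 (54.3%) and Usp48 (57.2%) were below. The densest member, Usp12, and Usp31 thus lay on opposite sides. Across these 36 genes the share with 5′ U and the U content of the transcript had a Spearman correlation of 0.219, a description over genes of 1 pooled list.

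**Figure D4:**
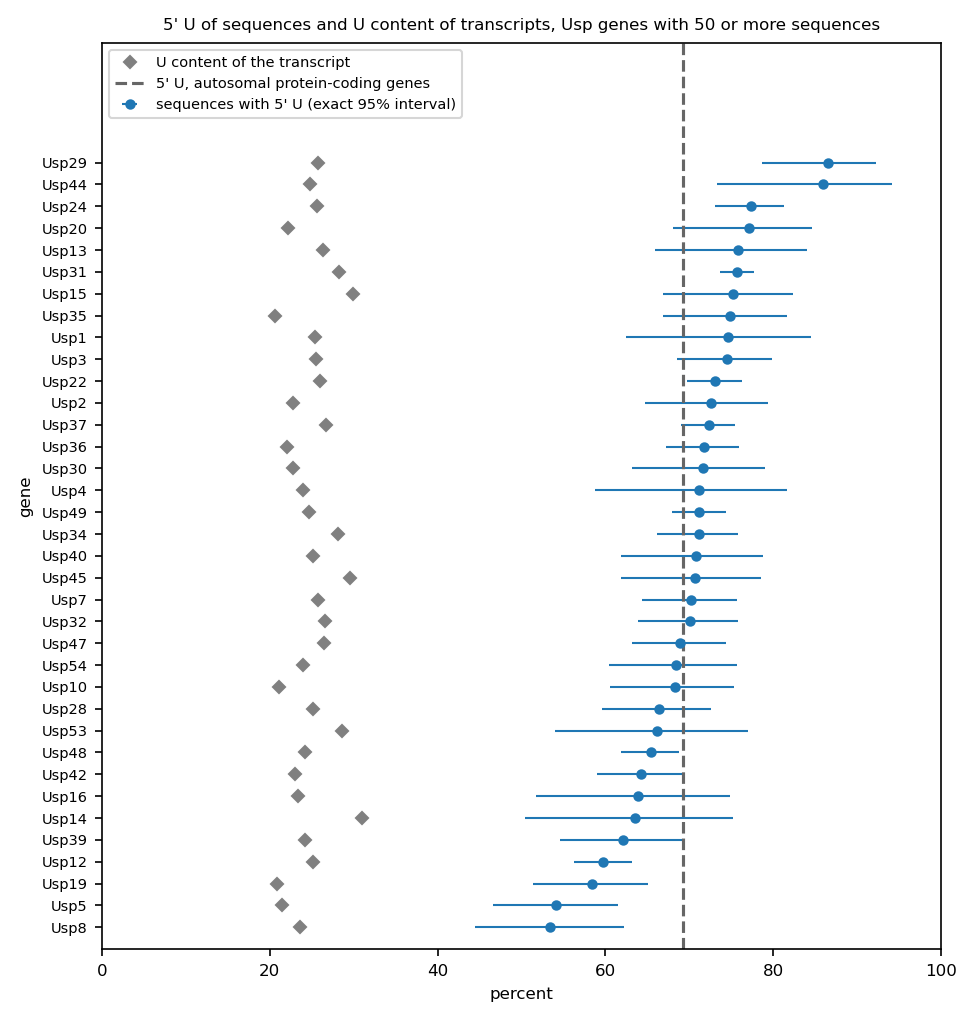
Percent of sense sequences that begin with U (circles, with exact 95% intervals over sequences) and percent U of the transcript (diamonds) for the 36 Usp genes with 50 or more sequences, with the share over all autosomal protein-coding genes as a dashed line (69.2%). Every circle lies to the right of its diamond, and Usp8, Usp5, Usp19 and Usp12 are lowest.

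A at position 10, left in secondary piRNAs by slicing, was carried by 29.9% of sense sequences (29.1–30.8%), against 30.6% over all genes, and by 31.5% (29.9–33.1%) of those without a 5′ U. Over distinct ends, A stood at 30.6% at position 9, 29.99% at position 10 and 31.03% at position 11, so position 10 was not above its neighbours. The base directly after the 3′ end was U in 25.98% of cases (25.03–26.9%), against 24.96% over all genes, and the 12 positions after it ran from 24.4% to 25.96%. A 5′ end directly followed a 3′ end in 593 pairs, against a mean of 562 (533 to 595) at distances of 2 to 20 nt, a ratio of 1.06, which was not computed for all genes. The length of the sequences was 27.1 nt on average (SD 1.33 nt over sequences), and 76.3% had 26 to 28 nt, against 75.5% over all genes. The gel cut limits this length from the start, but the most frequent length, 27 nt (30.5%), lay below the stated cut of roughly 28 to 30 nt. The reason for this was not tested.

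**Figure D5:**
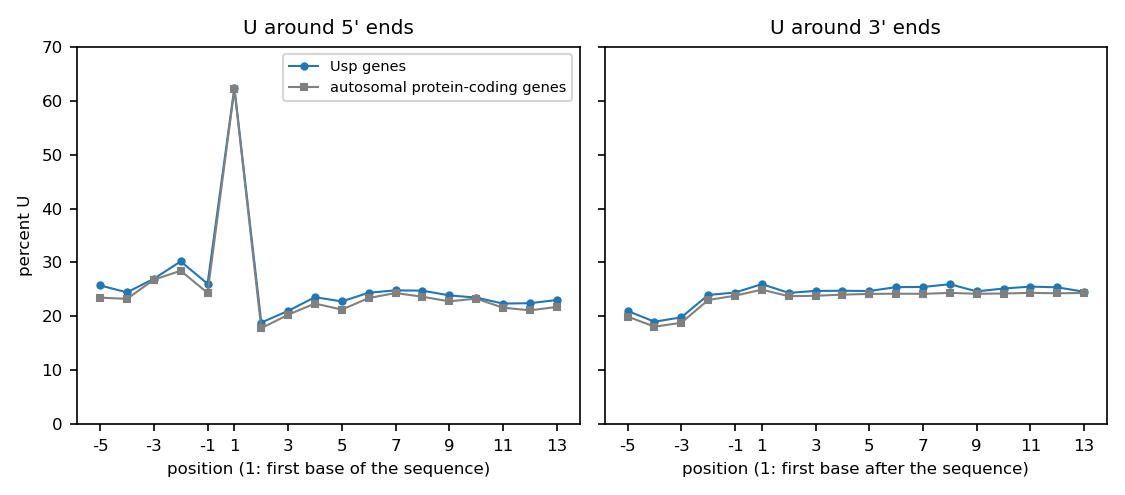
Percent U (y axis) at positions around distinct 5′ ends (left) and after distinct 3′ ends (right) of sense sequences on Usp transcripts (circles) and on all autosomal protein-coding transcripts (squares). U peaks at the first base of the sequence (62.5% in Usp genes, 62.2% in all genes), and no such peak is seen at the first base after it (25.98% and 24.96%).

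Antisense sequences that matched a Usp gene and no other gene were few. They numbered 192 at 172 ends, which was 1.71% of the family's sequences (1.48–1.96%), against 4.79% over all genes. At least 1 was found for 24 of the 49 members, against 45.9% of all genes, and U began 81.8% of them (75.6–87.0%). Under this rule Usp3 had most with 34, followed by Usp5 with 18, Usp24 and Usp4 with 16 each and Usp54 with 15. Without Usp3 the antisense share was 1.44%. Antisense sequences that also match another gene were not counted here. Among them were 64 of Usp14 (also Thoc1), 54 of Usp30 (Alkbh2), 34 of Usp49 (Gm20517) and 28 of Usp37 (Cnot9). Usp14 and Usp37 had 0 under the rule, so the share, the count of 24 members and the order above depend on it. The antisense share with every matched gene counted was not computed. On the transcripts with the longest coding sequence, 79 antisense ends lay opposite the 3′ UTR, 55 opposite the coding sequence and 7 opposite the 5′ UTR. In Usp3 24 lay opposite the 3′ UTR and 4 opposite the coding sequence, whereas in Usp5 10 lay opposite the coding sequence and 1 opposite the 3′ UTR.

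Sense and antisense ends that overlapped by 10 nt, the distance left when a PIWI protein slices its target, were rare. There were 9 such pairs, in Usp5, Usp49 and Usp30, against 2 to 12 pairs at each other overlap from 1 to 20 nt (mean 6.26), so no excess was detectable at these counts. Sequences shared with another gene, such as those antisense to Usp14 that match Thoc1, were left out, so pairs that involve them are not counted. For each gene the pair with the lowest position is printed, with the first 10 bases, which are complementary between partners, in capitals. The Usp30 pair lies at chr5:114573193-114573219 (mm9, plus strand, sense) and chr5:114573176-114573202 (minus strand). The Usp49 pair lies at chr17:47819863-47819891 (plus strand, sense) and chr17:47819847-47819872 (minus strand), and the Usp5 pair at chr6:124767042-124767068 (minus strand, sense) and chr6:124767059-124767085 (plus strand).
Usp30 sense: TGACCATAGAgcaccgtgcagggctgt
Usp30 antisense: TCTATGGTCAcaagtgactgccggctt
Usp49 sense: TACATATGAGattagtaaaattacttagt
Usp49 antisense: CTCATATGTAggtgttcaggtcagtt
Usp5 sense: TCATTAGTCAcatgggcacatctacta
Usp5 antisense: TGACTAATGAaggcaaagagctgatac
In the Usp30 and Usp5 pairs both partners begin with U and both carry A at position 10, and in the Usp49 pair the sense partner begins with U and the antisense partner has A at position 10. In such a pair position 10 faces the first base of the partner. The A therefore follows from the chosen overlap and the 5′ U of the partner, and is no separate observation.

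Other genes of deubiquitinating enzyme families gave sequences as well. They were listed by protein family, and activity on ubiquitin was not checked for each gene. Of 43 such genes without a Usp number, 41 reached 10 sense sequences (57.5% of all autosomal protein-coding genes) and 25 reached 100 (25.8%). Of these genes, Otud5, Otud6a, Alg13 and Brcc3 are X-linked, whereas the shares in brackets are of autosomal genes. Their median density was 33.9 ends per kb. By family the medians were 35.6 for the 16 OTU genes, 36.1 for the 11 JAMM genes, 36.2 for the 3 Josephin genes, 27.5 for the 5 UCH genes and 11.1 for the 5 MINDY and ZUP1 genes. Otud3 was the densest gene of these lists at 183 ends per kb, and the histone H2A protease Mysm1 had 964 sequences (75.7 ends per kb). Uchl4 and Stambpl1 had 0. The other 3 of the 43, Cyld, Uspl1 and Pan2, share the Usp fold and had 386, 393 and 213 sequences. The 10 listed partners of Usp enzymes each reached 10 sequences, as did 57.5% of all autosomal protein-coding genes, and their median density was 18.5 ends per kb. Atxn7, the SAGA subunit that anchors Usp22, had 655 sequences (61.9 ends per kb), and Wdr48, the partner of Usp12, Usp46 and Usp1, had 103 (17.7). These medians describe the lists and were not tested against each other.

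The Usp genes that the rule leaves out also had sequences. On the X chromosome, the testis-specific Usp26 had 519 (77.4 ends per kb), Usp27x 196 (32.5), Usp9x 82 (5.97), Usp11 61 (11.3) and Usp51 12 (4.99), and the Y-linked Usp9y had 105 (10.6). Usp26 thus lay among the densest of the family, below Usp48 and above Usp37. Usp6nl, which is a Rab GTPase-activating protein and no protease, had 588 (50.6).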

How the data were processed

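MILI-bound RNAs of 14 dpp testes were measured in 2 Tdrd9+/- and 2 Tdrd9-/- libraries. Per the submitters' processing notes the genome build was mm9. Aligner, mismatches allowed and read filters: not given in the sources used here. The deposited table, per the file headers, names a sequence, its chromosome and strand, and the start and end, which are genome positions rather than counts. All libraries share it.

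Every sequence was compared with the 141767 transcripts of GENCODE M21 (GRCm38) by exact match in both orientations, and the matching was tested on simulated data. Only sequences, gene types, exon order and coding limits (stop codon included) were taken from that annotation, and no coordinate was converted. A sequence belonged to a gene when it matched no other gene on either strand, which left out 1537 sequences of Usp genes. Of the sense sequences, 99.98% lay on the chromosome and strand of the gene, and 2 on another chromosome. Density used the longest transcript and regions used the transcript with the longest coding sequence, which leaves 522 ends unplaced.

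The planned rule named the 12 fullest members, the extremes of density, antisense count and region ratio, members at 0, and any member with a certain role. The members follow from symbol and chromosome, but this gene family, its rule and the lists were chosen with earlier results of these data known. 1 planned gene list is not reported here. Alternatives covered lengths of 24 to 31 nt, ends in place of sequences, other transcripts, shared matches, recurring ends and leaving out single members. The tools were numba 0.67.0, numpy 2.4.6, scipy 1.17.1, pandas 2.3.3 and matplotlib 3.10.9 under Python 3.11.15.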

Additional observations from a re-analysis of the deposited data

How the results depend on the processing

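No paired analysis was possible because the pooled table names no library. Counting distinct 5′ ends in place of sequences moved the share with a 5′ U from 70.1% to 63.2% and the antisense share from 1.71% to 2.34%. Leaving out Usp31, the member with most sequences, gave a 5′ U share of 69.05%. Leaving out Usp3, the member with most antisense sequences of its own, gave an antisense share of 1.44%. No antisense share was computed with shared matches counted. Sequences of 24 to 31 nt gave 10989 sense sequences in place of 11057, and counting every matched gene gave 12365. The number of members with 10 or more was 41 under both alternatives tried. The median density ran from 15.8 to 23.1 under 5 alternatives, and the pooled ratio of the 3′ UTR density over the coding density from 1.43 to 2.08 under 4. The unknown depth limits all values, since rare RNAs of a gene with few sequences may not have been sampled.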
